A study of Mus musculus with 6 samples.

Results

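The HoxC cluster was followed through its accessible intervals in mouse neural progenitors with and without added Nr6a1. Members were the intervals of the deposited ATAC-seq table on chromosome 15 (mm10) with a midpoint between 102915000 and 103042000. That window holds all 9 Hoxc genes, from Hoxc13 at its low end to Hoxc4 at its high end, and 20 of the 52223 intervals in the table. All 20 passed the filter on low counts and were tested.

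ATAC-seq reads out open chromatin through the Tn5 transposase, which inserts adapters where DNA is exposed. There were 6 libraries, all of progenitors derived from mouse embryonic stem cells by the same protocol. Cells were plated with 10 ng/ml bFGF, switched on day 2 to 5 µM CHIR99021 (an inhibitor of GSK3), and on day 3 to 100 nM retinoic acid (RA) with 10 nM Smoothened agonist (SAG), with SAG alone from day 5. On day 5 the controls received a lentivirus for the fluorescent protein mScarlet3 (mScarlet, n = 3), and the others one for Nr6a1 joined to mScarlet3 by a 2A peptide (Nr6a1OE, n = 3). Cells of both groups were sorted by that fluorescence on day 9, so each group is limited to transduced cells, and 50000 entered each library. The labels name no promoter for the virus.

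Hox genes encode homeodomain transcription factors that set position along the body axis, and they lie in 4 clusters in the order in which they act from head to tail. In the HoxC cluster Hoxc4 and Hoxc5 act most anteriorly, Hoxc6, Hoxc8 and Hoxc9 act in the trunk, where they assign spinal motor neurons to limb and thoracic levels, and Hoxc10 to Hoxc13 act furthest towards the tail. Nr6a1 is an orphan nuclear receptor that silences pluripotency genes and takes part in trunk formation, and it binds direct repeats of a nuclear receptor half-site with no gap.

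Of the 9 Hoxc genes, Hoxc4 had a promoter sequence in the RefSeq table (GRCm38.p6, the assembly of mm10). A non-coding gene, Gm29905, had one at the start of Hoxc6. Both are shown because they lie inside member intervals, the first at a start that did not pass the test and the second in one of the 2 intervals that did. The difference between those intervals was not tested. Capitals mark a half-site in the first (TGACCT, the reverse complement of AGGTCA) and the letters CCAAT in the second. This CCAAT lies just past the Gm29905 start, within the first bases of that gene. The first gives the 250 bases before the Hoxc4 start, chr15:103034145-103034394 on the plus strand. The second runs on the minus strand from the edge of Hoxc6 through the first bases of Gm29905, chr15:102998118-102998225.
Hoxc4 promoter: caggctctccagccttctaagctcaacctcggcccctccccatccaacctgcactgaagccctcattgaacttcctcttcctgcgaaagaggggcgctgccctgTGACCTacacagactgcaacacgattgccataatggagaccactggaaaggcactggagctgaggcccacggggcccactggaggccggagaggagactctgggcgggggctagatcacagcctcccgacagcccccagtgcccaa
Hoxc6 edge and Gm29905 start: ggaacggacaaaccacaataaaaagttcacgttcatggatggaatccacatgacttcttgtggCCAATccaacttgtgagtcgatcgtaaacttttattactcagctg

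Motifs were searched on both strands in the whole RefSeq windows, from 250 bases before to 50 after these starts. The half-site AGGTCA matched once at Hoxc4 and 0 times at Gm29905, and 16.3% of the 32851 mouse promoter entries held it. The gapless repeat AGGTCAAGGTCA, which contains the half-site, matched neither, and 2 of the 32851 entries held it. The homeodomain core TAATTA was found once at Gm29905, against 5.29% of entries. CCAAT was found once at each of the 2 starts, against 37.4% of entries. The promoter of Gm36878, a non-coding gene inside the Hoxc9 span, also lies in a member interval, which did not pass the test. It is not printed, and its window held 0 matches to each of these motifs.

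The cluster also carries 2 microRNA genes, which show how it relates to its neighbours and to HoxB. Their mature sequences are given with the seed, bases 2 to 8, in capitals.
miR-196a-5p: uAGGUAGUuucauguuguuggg
miR-615-3p: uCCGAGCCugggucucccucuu
The mature miR-196a-5p of Mir196a-2, between Hoxc10 and Hoxc9, is spelled as that of Mir196a-1 on chromosome 11, in HoxB, and miR-196 is known to target Hox transcripts. Mir615 lies inside the Hoxc5 interval, the member with the most fragments. Mir196a-2 lies in no interval, 2.22 kb from the one at the Hoxc9 start, and the non-coding gene Hotair lies 72 bases from an interval between Hoxc12 and Hoxc11.

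Libraries held 6857763 to 8030029 fragments in intervals. Members had 32 to 521 fragments in a library, so the counting error was wide for the weakest. Progenitor marker genes were accessible, with all 10 on the list (Sox1, Sox2, Nes, Pax6, Olig2 and others) at an interval of 26.2 to 134 CPM in mScarlet (CPM, the usual depth-normalised count, over fragments in intervals and scaled by TMM). Of 5 pluripotency markers 2 had an interval, at 2.70 and 7.01 CPM, and neuronal (5 of 5 genes, 14.0 to 86.3 CPM), endoderm (4 of 4), mesoderm (4 of 5) and neural crest (3 of 3) markers also had open intervals. The median over a list, in mScarlet and then Nr6a1OE, was 84.2 and 83.2 CPM for progenitor, 27.0 and 28.2 CPM for neuronal, 44.9 and 45.2 CPM for endoderm and 37.6 and 35.7 CPM for neural crest markers. The mesoderm median, set by T, was 14.6 and 18.6 CPM (log2 fold change 0.36), and Tbx6, Foxc2 and Meox1 had log2 fold changes of 0.07, 0.07 and 0.17, with 0 intervals at Msgn1. The part of these markers in the HoxC values was not tested. Pou5f1, Zfp42 and Dppa3, pluripotency genes, had 0 intervals. At Nr6a1, 1 of 8 intervals rose in Nr6a1OE, against 0.469% of all tested intervals (log2 fold change 0.30, edgeR adjusted p = 1.22e-04). Whether fragments of the viral copy enter this value was not tested.

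The members cover 32.0 kb of the 127 kb window, and every Hoxc gene start used here lay in one of them. For Hoxc4 this start is that of its promoter entry, inside the gene span. The low end of the Hoxc4 span, 103018097, lay in no interval, while low ends were used for the other genes. In control progenitors their levels per length ran from 4.25 to 31.5 CPM per kb, with a median of 13.8 against 7.88 over all tested intervals. The most open members lay on the Hoxc4 side: the interval 1.54 kb beyond the Hoxc4 end (31.5 ± 3.25 CPM per kb, SD, n = 3, as for the levels that follow), the Hoxc4 start (28.9 ± 1.93) and the Hoxc5 start (26.9 ± 1.35). The first 2 differed by less than their spread. An interval between Hoxc9 and Hoxc8 followed (25.2 ± 1.84).

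Among the 9 intervals over gene starts, Hoxc13 came next after Hoxc4 and Hoxc5 in level per length (20.6 ± 0.641 CPM per kb in mScarlet). Below it came Hoxc8 (14.1 ± 0.190), Hoxc10 (13.5 ± 0.608), Hoxc11 (12.2 ± 0.747) and Hoxc9 (9.58 ± 0.634). Hoxc12 (7.96 ± 1.58) and Hoxc6 (7.94 ± 0.385) were the lowest. Within 1 SD, Hoxc4 overlapped Hoxc5, Hoxc8 overlapped Hoxc10, Hoxc10 overlapped Hoxc11, Hoxc9 overlapped Hoxc12, and Hoxc12 overlapped Hoxc6, so these neighbours in the order did not differ beyond their spread. The order of the levels was not the order along the chromosome. Interval length, as the authors set it, bears on these values, since the Hoxc6 interval is the longest, at 4347 bp, and the shortest member has 587 bp.

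**Figure D1:**
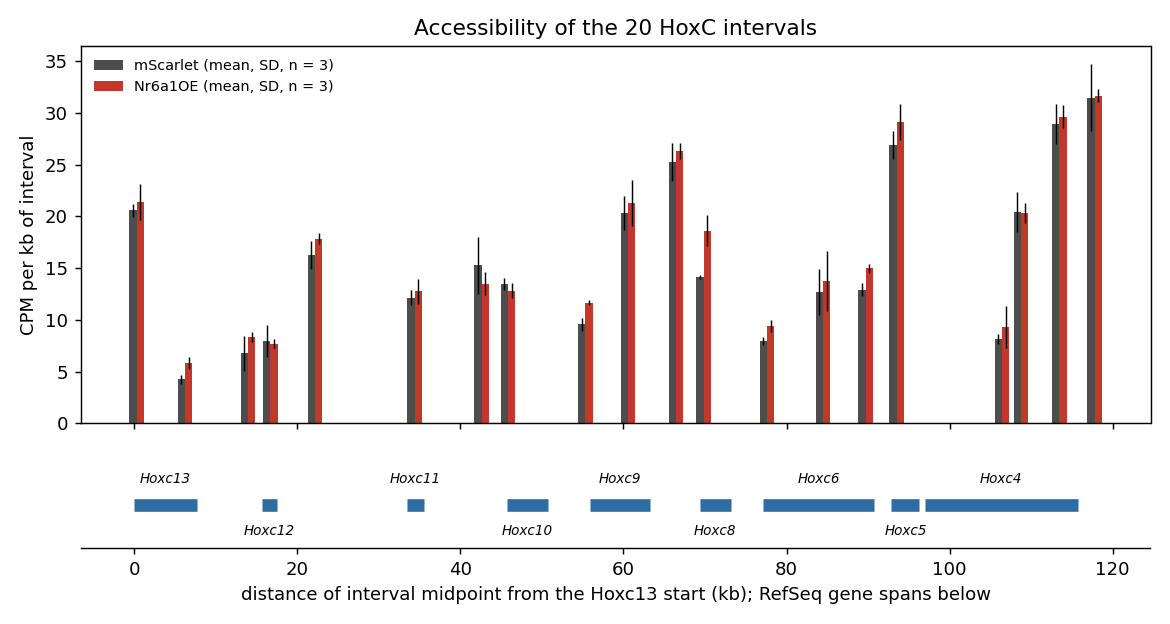
Accessibility per kb of interval (bars, mean of 3 libraries, error bars SD) for mScarlet and Nr6a1OE, drawn as side-by-side bars at each interval midpoint against its distance in kb from the Hoxc13 start, with RefSeq gene spans below. Control levels run from 4.25 inside Hoxc13 to 31.5 CPM per kb beyond Hoxc4, and the 2 groups differ little beside the differences among intervals.

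With Nr6a1, accessibility rose at 2 of the 20 HoxC intervals, over the starts used here for Hoxc8 and Hoxc6, and fell at 0. An interval was called when its Benjamini-Hochberg adjusted p over all 51637 tested intervals was under 0.05 (edgeR quasi-likelihood test). The background was 0.469% of intervals higher and 1.26% lower, so the 2 members are 10% against 0.469%. That background includes many intervals with fewer fragments than most members. In a fit limited to a mean of at least 50 fragments, 206 of 27090 intervals rose, beside 2 of 18 members. An unadjusted p under 0.05 was reached by 7 members that were higher and by 0 that were lower, against 5.73% and 6.87% of all intervals. The median log2 fold change over the members was 0.10, against 0.0038 over all intervals and 0.0076 on chromosome 15, and 16 of 20 were above 0, as were 50.8% of all. In these bulk libraries, more cells with an open site and a more open site per cell cannot be told apart.

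At Hoxc8, which patterns the brachial and upper thoracic trunk and its motor pools, the interval spans 102990467 to 102991471 and covers the gene start (1005 bp). It held 14.2, 14.0 and 14.4 CPM in mScarlet 1, 2 and 3, and 17.0, 19.2 and 19.9 CPM in Nr6a1OE 1, 2 and 3. Every Nr6a1OE library lay above every control. The control libraries were nearly equal on 104, 96 and 115 fragments, closer than the counting error of such counts. Their SD is thus no measure of the error. From a control mean of 14.2 ± 0.191 CPM, the level rose 1.32-fold to 18.7 ± 1.503 CPM with Nr6a1 (SD over 3 libraries; log2 fold change 0.40, SE 0.11, edgeR adjusted p = 0.0221). The interval rested on 729 fragments over the 6 libraries.

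At Hoxc6, a gene of brachial segments, the interval spans 102996569 to 103000915 and takes in Gm29905 and the low end of the Hoxc6 span. Whether Hoxc6 has another start, further inside its span, was not checked. Levels were 36.4, 33.9 and 33.2 CPM in mScarlet 1, 2 and 3, and 38.5, 40.7 and 43.5 CPM in Nr6a1OE 1, 2 and 3. The groups did not overlap, and Nr6a1OE 1 was again the lowest of its group. The level rose 1.19-fold, from 34.5 ± 1.67 CPM in controls to 40.9 ± 2.52 CPM with Nr6a1 (SD over 3 libraries; log2 fold change 0.25, SE 0.073, edgeR adjusted p = 0.0404).

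Both calls were lost on leaving out any library except Nr6a1OE 1. Without mScarlet 1, 2 or 3 the edgeR adjusted p was 0.0861, 0.0749 and 0.0683 at Hoxc8 and 0.0518, 0.115 and 0.203 at Hoxc6, and without Nr6a1OE 2 or 3 it was 0.0850 and 0.168 at Hoxc8 and 0.0899 and 0.295 at Hoxc6. DESeq2 called neither (adjusted p = 0.688 and 0.885), nor did a fit with an assumed variation of 10% between cultures (0.468 and 0.854), and Hoxc6 was lost with chromosome medians removed (edgeR adjusted p = 0.0528).

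A second interval inside Hoxc6, at 103009465 to 103012198 and reaching past its high end, held 36.0, 36.7 and 33.3 CPM in mScarlet 1 to 3 and 39.5, 41.9 and 41.4 CPM in Nr6a1OE 1 to 3. The groups did not overlap, but the difference did not pass after adjustment (log2 fold change 0.22, SE 0.072, edgeR adjusted p = 0.102). The interval between them inside Hoxc6, at 103005152 to 103006036, had overlapping groups (log2 fold change 0.13, SE 0.13).

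Hoxc9, which gives motor neurons thoracic identity and holds back limb-level Hox genes, had its start under the interval 102975655 to 102977288. The values were 16.0, 16.5 and 14.5 CPM in mScarlet 1 to 3 against 19.4, 18.8 and 18.9 CPM in Nr6a1OE 1 to 3. All Nr6a1OE libraries lay above all controls, yet the log2 fold change of 0.29 (SE 0.11) had an edgeR adjusted p of 0.166. Inside Hoxc9, the interval 102980966 to 102982441 that holds the start of the non-coding gene Gm36878 ran from 27.2 to 31.7 CPM in mScarlet and from 28.1 to 34.5 CPM in Nr6a1OE, with a log2 fold change of 0.07 (SE 0.080).

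The interval over the Hoxc5 start and Mir615, at 103013457 to 103015818, had 64.3, 66.1 and 59.9 CPM in mScarlet 1 to 3 and 67.3, 73.4 and 65.7 CPM in Nr6a1OE 1 to 3. Its groups overlapped, since mScarlet 2 lay above Nr6a1OE 3. With 2919 fragments and an SE of 0.055, the smallest in the cluster, the log2 fold change of 0.12 did not pass (edgeR adjusted p = 0.338, unadjusted p = 0.0333).

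At Hoxc4, the most anterior gene, the interval holding the promoter printed above (103034042 to 103035126) had 29.0, 32.2 and 33.0 CPM in mScarlet 1 to 3 and 33.2, 32.3 and 30.9 CPM in Nr6a1OE 1 to 3. These ranges overlapped widely (log2 fold change 0.03, SE 0.079, edgeR adjusted p = 0.923). The other 2 intervals inside Hoxc4 had log2 fold changes of 0.19 (SE 0.20) and about 0 (-0.0016, SE 0.086), and the one beyond its end 0.0047 (SE 0.078).

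The largest log2 fold change among the members was on the tail side, inside Hoxc13, a gene of the most posterior segments that is also known for its part in hair and nails. This interval, at 102926718 to 102927965, was the least open of the 20, with 5.06, 5.97 and 4.87 CPM in mScarlet 1 to 3 and 7.38, 7.91 and 6.56 CPM in Nr6a1OE 1 to 3. The groups did not overlap, but on 277 fragments the log2 fold change of 0.46 had an SE of 0.18 and did not pass (edgeR adjusted p = 0.190).

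Between Hoxc13 and Hoxc12, the interval 102934364 to 102935830 held 9.44, 12.5 and 7.74 CPM in mScarlet 1 to 3 and 13.1, 11.9 and 11.9 CPM in Nr6a1OE 1 to 3. mScarlet 2 lay above 2 of the Nr6a1OE libraries, and the log2 fold change of 0.32 (SE 0.13) had an edgeR adjusted p of 0.242. It ranged from 0.17 without mScarlet 3 to 0.52 without mScarlet 2.

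The starts of the 4 posterior genes did not pass the test. The Hoxc13 start (102920627 to 102922205) had 33.1, 33.1 and 31.3 CPM in mScarlet 1 to 3 and 36.3, 34.2 and 30.9 CPM in Nr6a1OE 1 to 3 (log2 fold change 0.05, SE 0.078). The Hoxc12 start (102936784 to 102938828) had 15.05, 19.9 and 13.9 CPM against 15.8, 16.7 and 14.9 CPM, with mScarlet 2 above every other library (-0.04, SE 0.11). At Hoxc13 Nr6a1OE 3 lay below every control and the other Nr6a1OE libraries above, while at Hoxc12 all Nr6a1OE libraries lay within the control range.

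The Hoxc11 start (102954418 to 102956637) had 28.2, 27.7 and 25.1 CPM in mScarlet 1 to 3 and 31.1, 25.6 and 28.2 CPM in Nr6a1OE 1 to 3 (log2 fold change 0.07, SE 0.085). At the Hoxc10 start (102965929 to 102968047) the values were 29.6, 27.1 and 29.0 CPM against 27.8, 28.2 and 25.3 CPM (-0.08, SE 0.084). Groups overlapped at both of these genes, which act at lumbar levels. The lowest log2 fold change of the cluster, -0.17 (SE 0.15), was at an interval 2.73 kb from Hoxc10 whose groups overlapped, with edgeR adjusted p = 0.688. Taking away a single library moved it between -0.24 and -0.03.

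The 8 members not given library by library ran from -0.17 to 0.19, with 6 above 0 and edgeR adjusted p of 0.564 to 0.993. In 5 of the 20 intervals every Nr6a1OE library lay above every control, and in 0 below, against 7.89% and 8.73% of all tested intervals. These 5 were at Hoxc8, Hoxc9, both ends of Hoxc6 and inside Hoxc13.

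**Figure D2:**
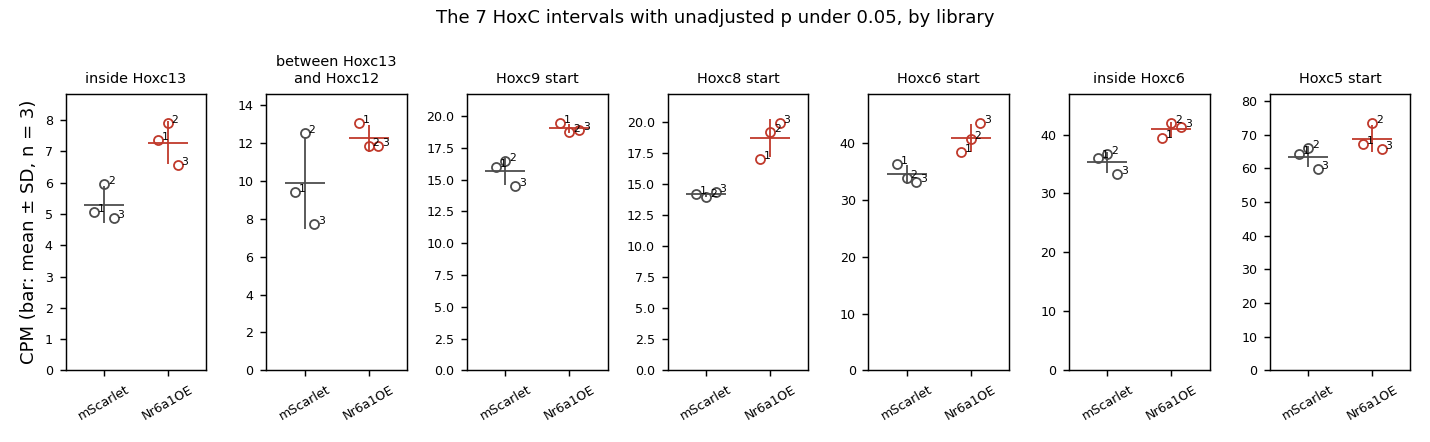
CPM in each library (open circles, numbered by replicate; bars mean ± SD, n = 3) for the 7 members with an unadjusted p under 0.05, each panel with its own axis from 0. The groups are apart in 5 panels, and overlap between Hoxc13 and Hoxc12 and at the Hoxc5 start.

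The values were also read by stretches along the chromosome. The 8 consecutive intervals from the Hoxc9 start to the Hoxc5 start, a stretch picked out after the values were seen, were all above 0, with a median log2 fold change of 0.17 (range 0.07 to 0.40). The next interval, inside Hoxc4, was above 0 too (0.19, SE 0.20), so the run of positive values did not end with the stretch. The 8 intervals on the Hoxc13 side had a median of 0.06, with 5 above 0, and the 4 on the Hoxc4 side one of 0.02, with 3 above 0. The largest log2 fold change of the cluster, 0.46, and another of 0.32 lay on the Hoxc13 side, outside the stretch. The difference between these stretches was not tested. In fits without 1 library all 8 from Hoxc9 to Hoxc5 stayed above 0, except that the interval inside Hoxc9 was at -0.0062 without Nr6a1OE 3. Such a run is not particular to HoxC. HoxB and HoxD held longer unbroken runs above 0, with 23 of 26 and 19 of 23 intervals above 0 in all.

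Summed over the stretch from the Hoxc9 start to the Hoxc5 start, libraries held 228, 230 and 215 CPM in mScarlet 1 to 3 and 244, 258 and 257 CPM in Nr6a1OE 1 to 3, a ratio of means of 1.13. Over the other 12 intervals they held 246, 258 and 240 CPM against 262, 258 and 247 CPM, a ratio of 1.03. The groups were apart in the first sum and overlapped in the second. Because the stretch was picked after the values were seen, these sums cannot show that it differs from the other intervals. The sums over all members were also apart, at 455 to 488 CPM in mScarlet and 505 to 515 CPM in Nr6a1OE.

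**Figure D3:**
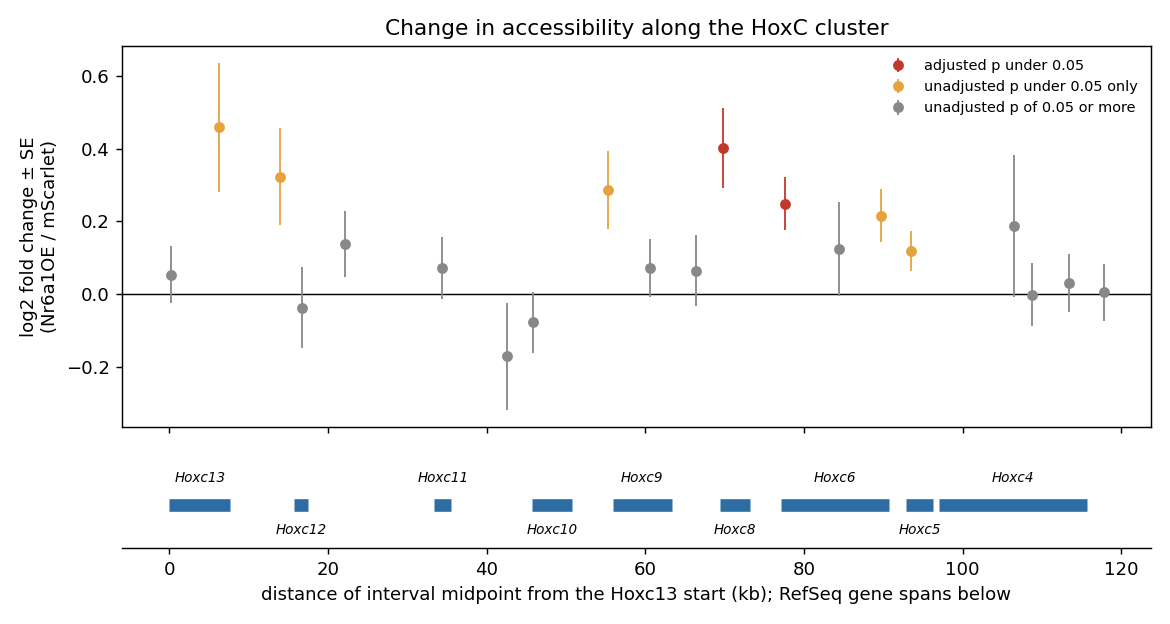
Log2 fold change of Nr6a1OE over mScarlet (points, bars SE) for the 20 members against distance in kb from the Hoxc13 start, with RefSeq gene spans below and colours for adjusted and unadjusted p. The 2 called intervals, at 0.40 and 0.25, sit at the starts used for Hoxc8 and Hoxc6. They lie inside an unbroken run of positive values that begins at the Hoxc9 start and ends inside Hoxc4.

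One control library stood low in this cluster. mScarlet 3 was the lowest of the 6 libraries in 11 of the 20 intervals, and its sum over all members was 455 CPM, against 475 and 488 in mScarlet 1 and 2 and 505 to 515 in the Nr6a1OE libraries. By chi-square per degree of freedom it was also the control library furthest from the Nr6a1OE ones over the genome (1.40 to 1.54, against 1.21 to 1.36 for mScarlet 1 and 2). This measure is taken on counts and grows with depth where levels differ, and mScarlet 3 was the deepest library (8030029 fragments). Without mScarlet 3 the median over the members was 0.08 and 16 of 20 were still above 0. In that fit 4 in place of 7 had an unadjusted p under 0.05 from edgeR, while 0 were called. Its part in the 2 calls beyond these values was not tested.

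**Figure D4:**
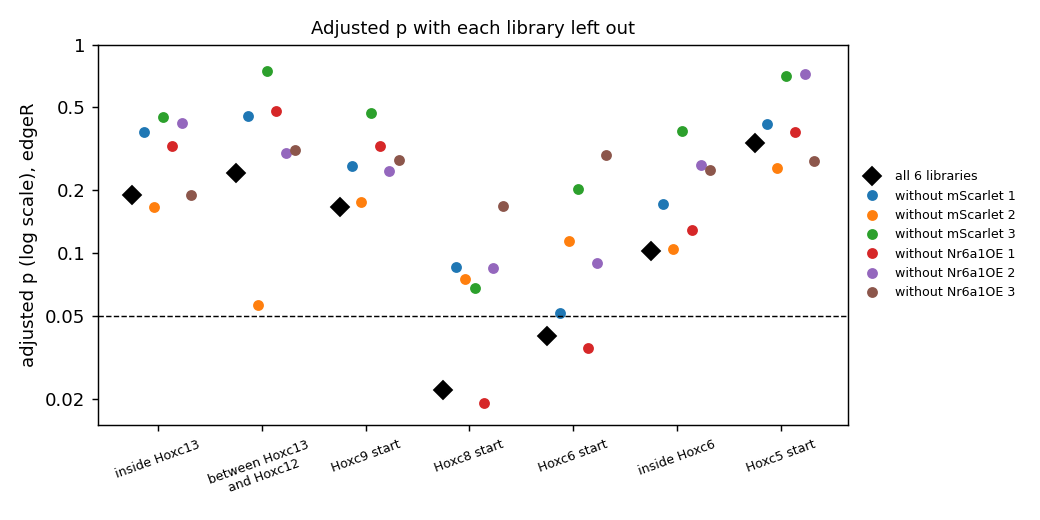
edgeR adjusted p (log scale) for the 7 members with an unadjusted p under 0.05, with all 6 libraries (diamonds) and with each library left out (circles), and a dashed line at 0.05. The Hoxc8 and Hoxc6 starts lie under the line with all libraries (0.0221 and 0.0404) and without Nr6a1OE 1 (0.0191 and 0.0351), and every other circle lies above it.

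The values at the edges of the window were as follows. Just inside it, the Hoxc13 start had a log2 fold change of 0.05 and the interval beyond Hoxc4 one of 0.0047. Just outside, the next interval on the Hoxc13 side (102909653 to 102911250) had one of 0.10 (SE 0.14), and that on the Hoxc4 side (103059590 to 103061791) one of 0.16 (SE 0.064). The latter did not pass after adjustment (edgeR adjusted p = 0.210), but its groups did not overlap and its unadjusted p from edgeR was 0.0116, as found for some members. Higher values were thus also seen beyond the window.

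The other Hox clusters were read from the same fit, each from 5 kb before its first gene to 5 kb after its last. HoxC had 1.57 intervals per 10 kb, against 2.08 in HoxA, 1.41 in HoxB and 2.15 in HoxD. Its median control level per length, 13.8 CPM per kb, was below those of HoxA (28.5), HoxB (17.8) and HoxD (22.4).

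In HoxB 1 of 26 intervals (3.85%) rose, at Hoxb9 (0.21, SE 0.063, edgeR adjusted p = 0.0438, groups overlapping), 0 fell, 23 were above 0 and the median was 0.08. At an unadjusted p under 0.05 it had 6 higher intervals and 0 lower, with 4 non-overlapping higher and 0 lower, beside 7 and 0, and 5 and 0, in HoxC. HoxB lies on chromosome 11, whose intervals had a median of 0.06. In HoxD 0 of 23 were called by edgeR. An unadjusted p under 0.05 was found for 2 above 0 and 2 below, and 19 of the 23 were above 0, with a median of 0.05. In HoxA, on chromosome 6 (median -0.03), 1 of 24 fell, inside the Hoxa3 span (-0.61, SE 0.092, edgeR adjusted p = 1.97e-08), and 12 were above 0 around a median of 0.0031. In HoxA the unadjusted p was under 0.05 at 2 intervals above 0 and 5 below. Differences between clusters were not tested.

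Hoxd8 and Hoxd9 are the HoxD paralogues of Hoxc8 and Hoxc9, and Hoxb9, above, is the HoxB paralogue of Hoxc9. Among paralogues of Hoxc8 and Hoxc9, only Hoxd8 and Hoxd9 had a RefSeq promoter entry inside a tested interval. The starts of the others are thus not given, and paralogues of Hoxc6 were not looked up. Controls had 52.0 ± 3.67 CPM over the Hoxd8 start and Nr6a1OE 53.7 ± 2.15 CPM (SD over 3 libraries), which is 0.05 on the log2 scale (SE 0.062, edgeR adjusted p = 0.824). At the Hoxd9 start the log2 fold change was 0.0055 (SE 0.065, edgeR adjusted p = 0.985). Their differences from the HoxC starts were not tested.

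**Figure D5:**
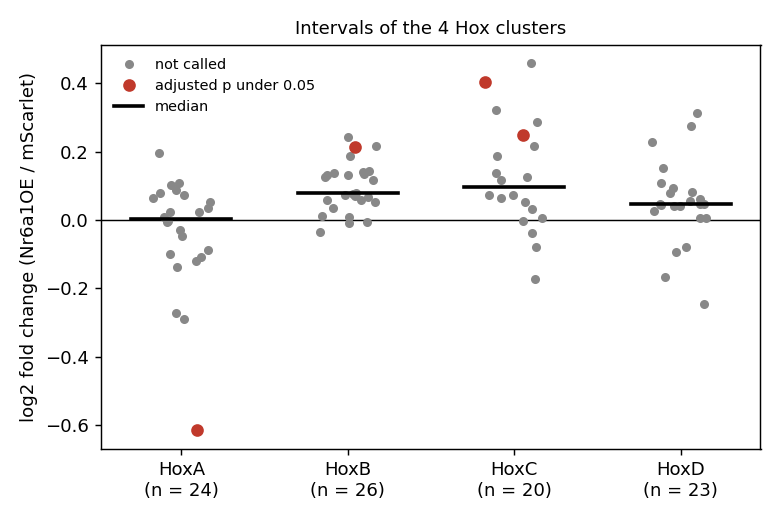
Log2 fold change of Nr6a1OE over mScarlet for each interval of the 4 Hox clusters (points, spread sideways at random; red where adjusted p was under 0.05; black lines medians). HoxC has the highest median, 0.10, and 2 called intervals above 0, HoxB 1 above 0, HoxA 1 below 0 and HoxD 0.

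Genes that act with or upstream of Hox factors were read from the same fit. Among 13 cofactor and regulator genes (the Meis, Pbx and Pknox partners of Hox proteins, Cdx genes and Gdf11), 12 had intervals within 5 kb, 90 in all, of which 1 rose (1.11%) and 2 fell, against 0.469% and 1.26% of all tested intervals, so the list is near the background. Its median log2 fold change was 0.05. The one that rose was inside Meis1, on 5 to 23 fragments a library (1.40, SE 0.35), and those that fell were inside Pbx3 (-1.03, SE 0.18) and Pknox2 (-0.80, SE 0.17), with edgeR adjusted p of 0.00944, 1.04e-05 and 7.68e-04.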

How the data were processed

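The deposited table gives unnormalized counts of fragments in 52223 consensus intervals for each of 6 libraries. Per the file headers, featureCounts 2.0.1 counted read pairs, assigned a fragment to every interval it overlapped and required an overlap of 0.2 of the fragment, so neighbouring intervals can share fragments. The submitters' processing notes name mm10. Not given in the sources used here are the aligner, the peak caller, duplicate handling and any shift for the Tn5 cut. Interval lengths were taken as deposited.

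The whole table was filtered with filterByExpr (586 intervals removed, 51637 tested), scaled by TMM and tested with edgeR 4.0.16 in R 4.3.3 (glmQLFit, glmQLFTest, no covariate, Benjamini-Hochberg adjustment over all tested intervals). The test was also run on counts simulated with the spread estimated from these same libraries. That run cannot show whether the calls hold under a wider spread between cultures. SE is the absolute log2 fold change divided by the square root of F. Gene spans came from RefSeq (GRCm38.p6), which gives no strand here. All Hoxc genes are read towards Hoxc4, so the low coordinate was taken as the start. The RefSeq promoter entry was used instead for Hoxc4, whose span also covers transcripts with a start further away. Starts further inside the spans of the other genes, such as the 13657 bp of Hoxc6, were not looked for. All 9 genes were matched.

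Nothing in the labels says that a group's libraries are separate cultures. The p-values thus reflect the spread among these libraries alone, which may be technical. Nr6a1OE 1 and 3 agreed within counting noise where the mean was 100 fragments or more (chi-square per degree of freedom 0.999, other pairs within groups 1.02 to 1.17), and a fit with both summed is among the alternatives, as are DESeq2 1.42.0, other scalings and filters, a replicate block and each library left out. The members, lists and named intervals (an unadjusted p under 0.05, or a Hoxc gene start) were chosen with earlier results of these data known. Counts limit precision through fragments per interval, and errors cover these libraries alone. A further list of genes is not reported here.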

Additional observations from a re-analysis of the deposited data

How the results depend on the processing

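Of the 2 opened HoxC intervals, 0 were called by DESeq2 or with an assumed variation of 10% between cultures, and 1 with chromosome medians removed. Leaving out 1 library left 0 to 2 opened. No HoxC interval closed under any alternative run (at an unadjusted p under 0.05, 0 were lower and 2 to 8 higher), and the median stayed between 0.0629 and 0.119. Over the whole table, 242 opened and 652 closed became 4 and 99 in DESeq2, 19 and 205 with the assumed variation, and 98 to 190 and 395 to 544 with 1 library left out, while a mean of at least 50 fragments left 206 and 419, fewer intervals being tested. The cause of the other changes was not tested.

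Some members near 0 changed sign. The interval inside Hoxc4 at -0.0016 became 0.0043 with library size scaling and 0.0011 with the stricter filter, and the one beyond Hoxc4 became -0.0028 with chromosome medians removed. With 1 library left out, these ran from -0.0816 to 0.0560 and from -0.0655 to 0.0933, the Hoxc12 start from -0.145 to 0.124, the Hoxc4 start from -0.0212 to 0.0743 and the interval inside Hoxc9 from -0.0062 to 0.145.

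With replicate number as a block, 2 HoxC intervals opened and 0 closed, and 224 opened and 617 closed over the table. Deviations of same-numbered libraries correlated at 0.0319, -0.0249 and -0.0297, so the numbers were not taken to pair them. Only libraries numbered 1 correlated best with their own number. The 2 members with a mean under 50 fragments, inside Hoxc13 and Hoxc4, had SEs of 0.18 and 0.20.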
